A study of Mus musculus with 28 samples.

Results

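A set of 10 genes that p53 is known to switch on after DNA damage (10 of the 14617 genes in the table) was followed across 28 bulk RNA libraries of macrophages sorted from the brains of irradiated chimeric mice. The genes were chosen by symbol as known targets in the pathway, with earlier results of these data known, and all 10 were present: Cdkn1a, Ccng1, Bax, Bbc3, Aen, Phlda3, Eda2r, Mdm2, Trp53inp1 and Zmat3. Hosts were Cx3cr1 gfp/+ mice, in which GFP replaces a copy of Cx3cr1 and marks microglia and other macrophages, and every host was lethally irradiated. Mutant hosts received Vav-Cre: hDNMT3A fl/fl marrow and control hosts received hDNMT3A fl/fl marrow, so both marrows carried the floxed human DNMT3A allele. Vav-Cre acts in blood-forming cells, so any recombination lies in the marrow-derived cells and not in host cells. At 16 weeks after the transplant, GFP+ host cells, which had been irradiated with the animal, and GFP- donor cells, which grew from the transplanted marrow, were sorted from the brain parenchyma (labelled microglia) and from the leptomeninges, the thin membranes on the brain's surface. Each of the 8 groups had 4 libraries, except host leptomeningeal cells with 2 libraries per marrow genotype. At most 100000 cells went into a library.

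When DNA is broken, damage-sensing kinases stabilise the transcription factor p53, which binds response elements near its target genes. Its targets stop the cell cycle (Cdkn1a), tip cells toward apoptosis (Bax, Bbc3), and feed back on p53 itself (Mdm2). Microglia are long-lived, self-renewing macrophages of the brain, and part of them survive whole-body irradiation beside the marrow-derived cells that enter afterwards. Host cells differed from donor cells here in irradiation, in developmental origin and in the gate used to sort them. They also differed in genotype, with the Cx3cr1 gfp allele in host cells and the floxed human DNMT3A allele in marrow-derived cells. No library from an unirradiated mouse was analysed here, so these differences cannot be told apart. In bulk libraries, a change in the number of expressing cells and a change in the RNA of each cell cannot be told apart either.

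The upstream sequences below are shown because p53 binds DNA directly, and because the first of them lies before Cdkn1a, the member that differed most between host and donor cells of the parenchyma. RefSeq promoters on GRCm38.p6 were listed for 8 of the 10 genes, in 12 promoters, and Trp53inp1 and Zmat3 had no entry. The p53 response element is a pair of 10-base sites with a spacer of up to 13 bases. It was searched in the 250 bases before each transcription start with up to 2 mismatches in all, the C and G that define each site always kept, and it reads the same on both strands. It was found upstream of 3 of the 8 genes, Cdkn1a, Ccng1 and Bax, and upstream of 3.87% of the 27025 genes in the promoter table. Each of these 3 windows holds 2 pairs of sites that meet the rule and share a site. Capitals mark the pair with the shorter spacer, and lower case the rest of the 250 bases, written 5′ to 3′ along the gene.
Cdkn1a: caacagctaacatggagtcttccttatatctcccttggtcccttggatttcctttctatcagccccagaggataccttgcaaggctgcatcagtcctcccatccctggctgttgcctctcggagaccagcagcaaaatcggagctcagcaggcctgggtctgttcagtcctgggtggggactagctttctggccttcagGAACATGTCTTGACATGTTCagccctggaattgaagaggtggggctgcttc
Ccng1: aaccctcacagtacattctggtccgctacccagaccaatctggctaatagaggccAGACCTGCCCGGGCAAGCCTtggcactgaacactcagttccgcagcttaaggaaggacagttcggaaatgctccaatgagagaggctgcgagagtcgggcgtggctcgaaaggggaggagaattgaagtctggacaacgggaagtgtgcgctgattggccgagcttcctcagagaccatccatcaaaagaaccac
Bax: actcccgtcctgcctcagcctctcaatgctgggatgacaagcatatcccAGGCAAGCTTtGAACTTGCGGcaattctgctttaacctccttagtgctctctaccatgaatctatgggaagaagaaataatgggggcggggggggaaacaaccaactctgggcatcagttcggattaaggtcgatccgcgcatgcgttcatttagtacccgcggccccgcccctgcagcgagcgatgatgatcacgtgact
The Cdkn1a sequence is chr17:29090729-29090978 on the plus strand, before the upstream one of 2 starts that lie 2790 bases apart. The sites in capitals touch with no spacer, hold 1 mismatch and span bases 51 to 32 upstream of the start. The other pair, in which an exact site at bases 73 to 64 upstream stands 12 bases before the first site in capitals, has 0 mismatches. The Ccng1 sequence is chr11:40755287-40755536 on the minus strand, with 1 mismatch, no spacer and sites 195 to 176 bases upstream, and its other pair has 2 mismatches and a spacer of 5 bases. The Bax sequence is chr7:45466899-45467148 on the minus strand, with 2 mismatches, a spacer of 1 base and sites 201 to 181 bases upstream, and its other pair also has 2 mismatches and a spacer of 5 bases. A match describes these letters only and is no evidence of binding, and a window without a match says nothing about elements elsewhere, such as those in introns.

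The libraries were made by MARS-seq, a method that reads the 3′ end of each captured messenger RNA and tags it with a unique molecular identifier (UMI), so that copies of a molecule are counted once. Totals ran from 479077 to 3066506 UMIs per library (median 1634653.5). Levels are UMIs scaled to a common library total (CPM, counts per 1e6 UMIs), compared between libraries for the same gene and not between genes. The sorted populations carried their markers in part: 10 microglial genes such as Tmem119 and P2ry12 took 2.68% to 3.36% of UMIs in host microglia, but 0.577% to 0.694% in donor microglia, 0.374% to 0.817% in host leptomeningeal cells and 0.0636% to 0.133% in donor leptomeningeal cells. Border macrophage genes such as Mrc1 and Lyve1 took 1.14% to 1.63% in host leptomeningeal cells, against 0.346% to 0.610% in donor leptomeningeal cells. Neutrophil genes took 3.66% to 9.78% in donor leptomeningeal libraries, and astrocyte genes 0.0935% to 0.432% in donor microglia, both above the ranges of the other populations. The mouse Dnmt3a gene averaged 25.5 to 126 CPM over the 8 groups, and since these counts do not separate the human allele they do not check the marrow labels. Control donor microglia library 1 and mutant donor microglia library 4 stood apart from other donor microglia in an earlier analysis of these data. Without both, 8 of 9 tested members still passed between host and donor microglia, the same count as with them. The comparison of host and donor leptomeningeal cells uses neither group of donor microglia and was not refitted without these libraries. Whether each library came from its own mouse, or host and donor libraries from the same mouse, is not stated in the labels. A p-value here therefore describes spread from library to library, which may be technical, and treats the libraries as independent.

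**Figure D1:**
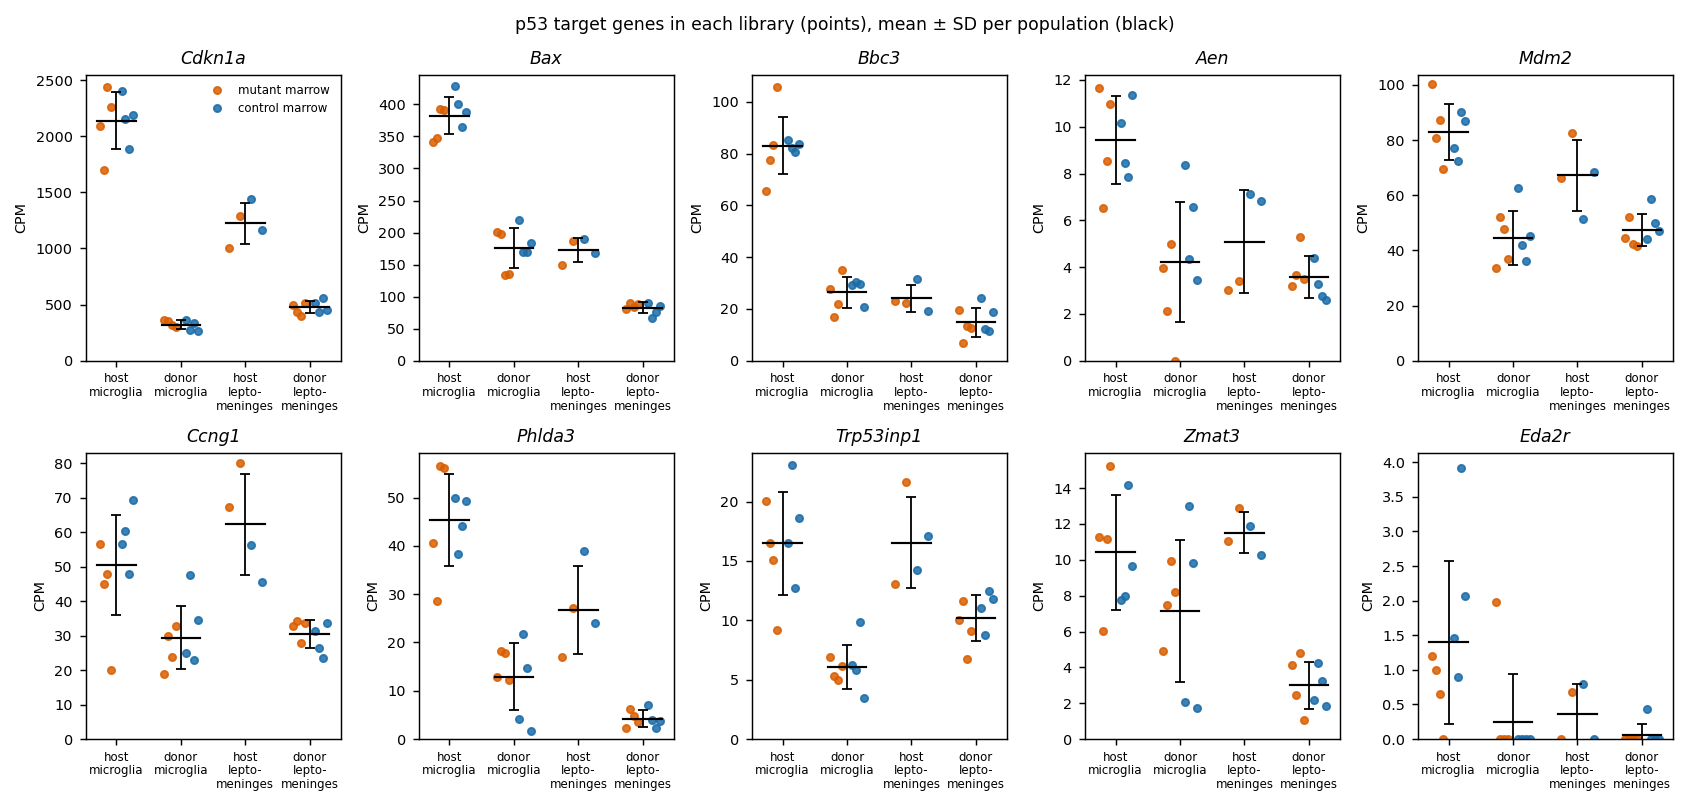
Level of each of the 10 p53 target genes in CPM (vertical axes, linear) in every library, for host and donor cells of the parenchyma and of the leptomeninges; points are libraries, coloured by marrow genotype, and black bars are mean ± SD over both genotypes. Host microglia lie above donor microglia for most genes, with Cdkn1a at 1698 to 2440.5 CPM in host and 265 to 366 CPM in donor microglia.

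In the parenchyma, irradiated host microglia carried more RNA than donor microglia for 8 of the 9 p53 targets that could be tested, and none was lower. Over all genes tested, 27.3% were higher and 33.1% were lower in host microglia at the same threshold, an adjusted p under 0.05. The members' median log2 fold change was 0.99, against -0.04 over all genes. Together the 10 genes took 0.231% to 0.314% of all UMIs in host microglia and 0.0560% to 0.0718% in donor microglia. Without Cdkn1a the shares were 0.0609% to 0.0733% in host and 0.0264% to 0.0357% in donor microglia, so the ranges stayed apart without their most abundant member.

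Cdkn1a encodes p21, the inhibitor of cyclin-dependent kinases through which p53 halts the cell cycle. Its level was 1698 CPM at the lowest, 2170.5 at the median and 2440.5 at the highest in the 8 host microglia libraries, against 265, 323 and 366 CPM in the 8 donor microglia libraries. All host libraries were high, all donor libraries low, and the groups were far from overlapping. The share of all genes whose libraries separate in this way was not computed, here or in the leptomeninges. Separation is therefore given as a description and not as a trait particular to the members. The fitted fold was 5.92, or 2.57 ± 0.10 on the log2 scale (SE, adjusted p = 3.58e-26). It was between 2.48 and 2.65 under all 23 alternative settings, each left-out library included. Ccng1 encodes cyclin G1, which brings a phosphatase to Mdm2. It had 20.2, 52.3 and 69.2 CPM (lowest, median, highest) in host microglia, against 18.7, 27.5 and 47.7 CPM in donor microglia. These ranges overlapped: mutant host library 4, at 20.2 CPM, stood below most donor libraries. The log2 fold change of Ccng1 was 0.61 ± 0.16 (adjusted p = 0.00105).

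Among the members that promote cell death, Bax, Bbc3 and Phlda3 separated the libraries of host and donor microglia, a trait not counted over all genes. Bax, which opens pores in the outer mitochondrial membrane, had 342, 390 and 428 CPM (lowest, median, highest) in host microglia, against 133, 176 and 219 CPM in donor microglia. No host library reached down to a donor library, and the log2 fold change was 0.94 ± 0.09 (adjusted p = 2.48e-12). Bbc3 encodes PUMA, a BH3-only activator of Bax. It had 65.5, 82.9 and 106 CPM in host microglia, against 17.1, 28.4 and 34.9 CPM in donor microglia. These groups did not overlap either, with a log2 fold change of 1.50 ± 0.17 (adjusted p = 3.53e-10). Phlda3, which competes with the survival kinase Akt for membrane lipids, had 28.5, 46.7 and 56.5 CPM in host microglia, against 1.73, 13.8 and 21.7 CPM in donor microglia. The lowest host library still lay above the highest donor library, and the log2 fold change was 1.59 ± 0.23 (adjusted p = 3.05e-07). Aen, an apoptosis-enhancing nuclease, was a low gene at 6.51, 9.36 and 11.7 CPM in host microglia, against 0, 4.14 and 8.35 CPM in donor microglia, where 1 library had no UMI. The ranges overlapped, and the log2 fold change was 0.99 ± 0.30 (adjusted p = 0.00408).

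Eda2r, a receptor of the tumour necrosis factor receptor family that binds ectodysplasin A2, was the only member that did not pass the filter on low counts, so it has no test. Its UMIs summed to 25 in host microglia (7 of 8 libraries), against 2 in donor microglia (1 of 8 libraries). Host leptomeningeal cells had 2 UMIs (2 of 4 libraries), against 1 in donor leptomeningeal cells (1 of 8 libraries). At the depths of these libraries the host over donor ratio in the parenchyma was 4.29, with an exact 95% interval of 1.07 to 37.4 that covers counting error only.

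Mdm2, the ubiquitin ligase that p53 induces and that degrades p53 in turn, had 69.6, 83.7 and 100.5 CPM (lowest, median, highest) in host microglia, against 33.5, 43.5 and 62.6 CPM in donor microglia. All host libraries were above all donor libraries, by a log2 fold change of 0.73 ± 0.12 (adjusted p = 7.84e-07). Trp53inp1, a stress protein that promotes p53 phosphorylation and autophagy, had 9.16, 16.5 and 23.1 CPM in host microglia, against 3.47, 5.97 and 9.84 CPM in donor microglia. Here 1 donor library overlapped the lowest host library, and the log2 fold change was 1.26 ± 0.24 (adjusted p = 1.49e-05). Zmat3, an RNA-binding zinc finger protein that regulates splicing, was the exception: it had 6.01, 10.4 and 15.3 CPM in host microglia, against 1.73, 7.84 and 12.998 CPM in donor microglia. The ranges overlapped widely, and its log2 fold change of 0.32 ± 0.31 did not pass (adjusted p = 0.383). The 5 shallowest libraries were donor microglia, and Zmat3 rested on 43 UMIs in all 8 libraries of that population.

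In the leptomeninges, 5 of the 9 tested members were higher in host than in donor cells and none was lower, where 13.3% of all genes were higher and 16.9% lower. The members' median log2 fold change was 0.78, against -0.01 over all genes. The 10 genes took 0.135% to 0.184% of UMIs in host and 0.0592% to 0.0741% in donor leptomeningeal cells. Cdkn1a had 1003 and 1290 CPM in the mutant and 1439 and 1163 CPM in the control host libraries, against 403, 473 and 559 CPM (lowest, median, highest) in the 8 donor libraries. The host libraries stood well above every donor library, with a fold of 2.18, or 1.13 ± 0.11 on the log2 scale (adjusted p = 1.4e-11). Ccng1 had 67.3 and 80.0 CPM in the mutant and 56.3 and 45.6 CPM in the control host libraries, against 23.6, 32.1 and 34.3 CPM in donor libraries. In contrast to the parenchyma, its groups did not overlap, and it rose by 0.78 ± 0.17 (adjusted p = 0.000179).

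The death-promoting members divided in the leptomeninges. Bax had 149 and 187 CPM in the mutant and 189 and 167 CPM in the control host libraries, against 66.2, 84.8 and 90.7 CPM (lowest, median, highest) in donor libraries. The groups were apart, with a log2 fold change of 0.84 ± 0.11 (adjusted p = 4.44e-08). Phlda3 had 17.1 and 27.1 CPM in the mutant and 38.8 and 23.9 CPM in the control host libraries, against 2.29, 3.801 and 7.05 CPM in donor libraries. This was the largest member fold in the leptomeninges at 5.48, or 2.45 ± 0.29 on the log2 scale (adjusted p = 1.63e-08), and the groups did not overlap. Bbc3 had 23.1 and 22.4 CPM in the mutant and 31.7 and 19.4 CPM in the control host libraries, against 6.74, 13.004 and 24.2 CPM in donor libraries, so the groups overlapped. Its log2 fold change of 0.48 ± 0.22 missed the threshold (adjusted p = 0.11). It passed without donor library 1 of the control group (adjusted p = 0.0316) or of the mutant group (adjusted p = 0.0332). Aen did not pass at 3.01 to 7.13 CPM in host and 2.58 to 5.29 CPM in donor cells (0.18 ± 0.37, adjusted p = 0.767).

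Of Mdm2, Trp53inp1 and Zmat3, only Zmat3 passed in the leptomeninges. It had 11.04 and 12.9 CPM in the mutant and 11.9 and 10.3 CPM in the control host libraries, against 1.05, 2.85 and 4.81 CPM (lowest, median, highest) in donor libraries. The host libraries were close together and above all donor libraries, with a log2 fold change of 1.71 ± 0.35 (adjusted p = 0.000143). Mdm2 had 66.3 and 82.7 CPM in the mutant and 51.5 and 68.3 CPM in the control host libraries, against 41.5, 45.8 and 58.7 CPM in donor libraries. Control host library 1 lay within the donor range, and the log2 fold change of 0.26 ± 0.13 did not pass (adjusted p = 0.148). Trp53inp1, at 13.1 to 21.7 CPM in host and 6.73 to 12.5 CPM in donor cells, did not pass either (0.48 ± 0.23, adjusted p = 0.108), although its groups did not overlap in CPM. The fold is fitted after scaling by trimmed means, which sets the host libraries lower relative to donor libraries than plain totals do.

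**Figure D2:**
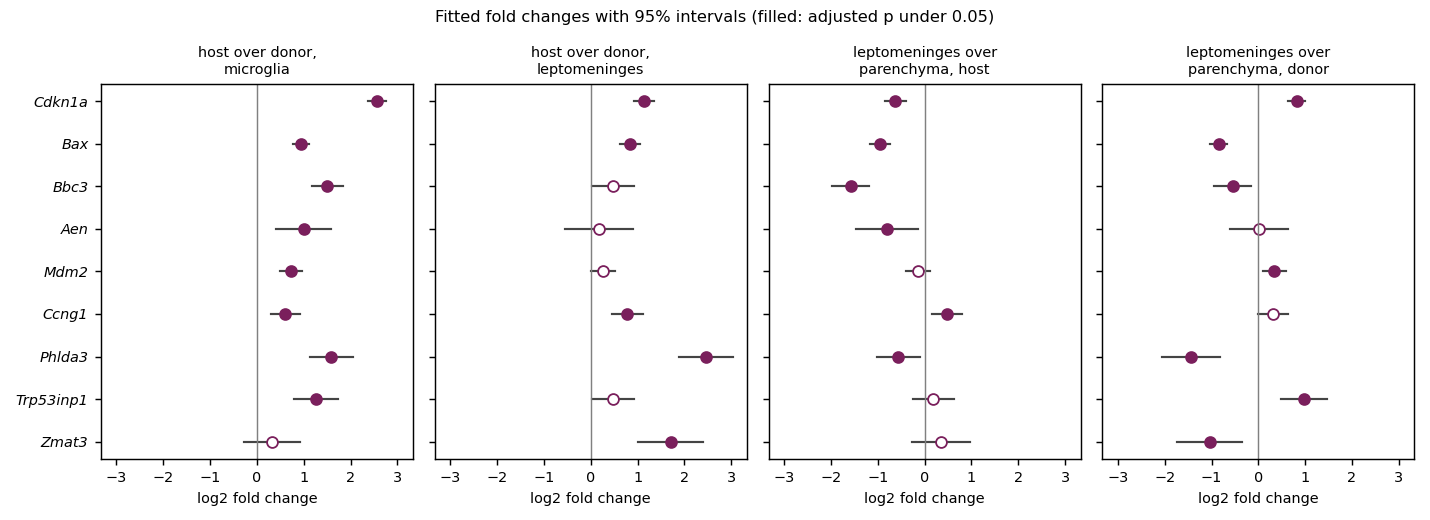
Fitted log2 fold changes (horizontal axes) of the 9 tested p53 targets with 95% intervals, for host over donor cells in the parenchyma and the leptomeninges and for leptomeninges over parenchyma in host and donor cells; filled points had an adjusted p under 0.05. In the first panel 8 points lie right of 0 and are filled, and in the second 5, with Cdkn1a at 2.57 in the parenchyma and 1.13 in the leptomeninges.

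The host over donor difference was itself compared between the compartments, leptomeninges minus parenchyma. Among the members 1 was higher and 3 were lower by this test, where 23.2% of all genes were higher and 19.1% lower, so the members' counts were near those shares. For Cdkn1a the difference was -1.44 ± 0.15 on the log2 scale (adjusted p = 8.66e-11), so the host excess in the leptomeninges was 0.369 of that in the parenchyma. Bbc3 had a smaller host excess in the leptomeninges as well (-1.03 ± 0.28, adjusted p = 0.00301). For Zmat3 the excess was larger in the leptomeninges (1.39 ± 0.47, adjusted p = 0.0156). This call for Zmat3 was lost without control donor microglia library 2 (adjusted p = 0.0776) or control host leptomeningeal library 1 (adjusted p = 0.0622).

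Mdm2 also passed with a smaller host excess in the leptomeninges (-0.47 ± 0.18, adjusted p = 0.0291), and was the least stable call. It was lost with DESeq2's size factors (-0.39, adjusted p = 0.0736) and DESeq2's own test (-0.40, adjusted p = 0.0819). It was also lost without mutant donor microglia library 1, control donor leptomeningeal library 3, control host leptomeningeal library 1, mutant donor leptomeningeal library 1 or 2, or mutant host leptomeningeal library 1 (adjusted p = 0.0511 to 0.0784). Bax and Ccng1 showed no compartment difference that passed: the 95% interval was -0.39 to 0.18 for Bax and -0.28 to 0.63 for Ccng1. Phlda3 (0.87 ± 0.39, adjusted p = 0.0699) and Trp53inp1 (-0.78 ± 0.34, adjusted p = 0.0593) lay close to the threshold. Phlda3 passed without control donor microglia library 1 or 4, mutant host microglia library 4, control donor leptomeningeal library 1 or mutant donor leptomeningeal library 2 (adjusted p = 0.0168 to 0.0454), and with both donor microglia libraries that stood apart left out (adjusted p = 0.0495). Trp53inp1 passed with no filter on low counts (adjusted p = 0.0489) and without control donor or control host microglia library 3, mutant host microglia library 4, control donor leptomeningeal library 2, mutant donor leptomeningeal library 3 or mutant host leptomeningeal library 2 (adjusted p = 0.0241 to 0.0383).

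Leptomeningeal host cells were next set against host microglia, both irradiated with the animal. Among the 9 members 1 was higher and 5 were lower in the leptomeninges, where 31.1% of all genes were higher and 25.7% lower. Bbc3 fell by 1.58 ± 0.20 (adjusted p = 7.93e-09), Bax by 0.96 ± 0.11 (adjusted p = 6.23e-10) and Cdkn1a by 0.63 ± 0.11 (adjusted p = 7.56e-06) on the log2 scale. For these genes no leptomeningeal host library reached the level of any host microglia library in CPM. Ccng1 was the member that rose (0.48 ± 0.16, adjusted p = 0.00998), and it lost the call without control host leptomeningeal library 1 (0.34, adjusted p = 0.174) or mutant host leptomeningeal library 2 (adjusted p = 0.0692). Mdm2, Trp53inp1 and Zmat3 did not pass, at -0.13 ± 0.13, 0.19 ± 0.22 and 0.35 ± 0.32.

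Aen (-0.80 ± 0.34, adjusted p = 0.0395) and Phlda3 (-0.56 ± 0.23, adjusted p = 0.0392) passed narrowly as lower in leptomeningeal host cells. Aen lost its call without any single host leptomeningeal library, control host microglia library 1 or 4, or mutant host microglia library 1 or 4 (adjusted p = 0.0548 to 0.112). Phlda3 lost it without control host microglia library 1 or 4, mutant host microglia library 3 or 4, control host leptomeningeal library 2 or mutant host leptomeningeal library 1 (adjusted p = 0.0543 to 0.161). Both also lost it with DESeq2's test (adjusted p = 0.0812 for Aen and 0.067 for Phlda3) and with voom (0.0608 and 0.0667, in the same order), and Phlda3 with DESeq2's size factors (adjusted p = 0.0522).

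Among donor cells, which grew from marrow after the irradiation, the same comparison gave 3 members higher and 4 lower in the leptomeninges, where 30.5% of all genes were higher and 31.6% lower. Cdkn1a rose by a log2 fold change of 0.81 ± 0.10 (adjusted p = 4.92e-10), opposite to its direction in host cells. Trp53inp1 rose by 0.97 ± 0.25 (adjusted p = 0.000902) and Mdm2 by 0.34 ± 0.12 (adjusted p = 0.015). The Mdm2 call was lost with DESeq2's test (adjusted p = 0.0507), without control donor microglia library 2 (adjusted p = 0.0546) or without mutant donor leptomeningeal library 2 (adjusted p = 0.0544). Phlda3 fell by 1.43 ± 0.32 (adjusted p = 0.000177), Zmat3 by 1.04 ± 0.36 (adjusted p = 0.00986), Bax by 0.85 ± 0.10 (adjusted p = 1.8e-10) and Bbc3 by 0.55 ± 0.20 (adjusted p = 0.0147). Bbc3 missed the threshold with both donor microglia libraries that stood apart left out (adjusted p = 0.0503). Zmat3 lost the call without control donor microglia library 2 (-0.79, adjusted p = 0.0893). Ccng1 did not pass (0.31 ± 0.17, adjusted p = 0.102), except without that same library (adjusted p = 0.0379). Aen was level at 0.01 ± 0.32 and its sign turned between settings.

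The order of the 4 populations thus differed between members. For Cdkn1a it ran from host microglia (2139 ± 251 CPM, SD, n = 8) through host leptomeningeal cells (1224 ± 185 CPM, n = 4) and donor leptomeningeal cells (475 ± 54.2 CPM, n = 8) to donor microglia (320.2 ± 39.6 CPM, n = 8), and each step passed its test. For Bax, host microglia (382 ± 28.9 CPM) came first and donor leptomeningeal cells (82.8 ± 8.30 CPM) last. Host leptomeningeal cells (173 ± 19.1 CPM) and donor microglia (176 ± 30.7 CPM) lay between them with overlapping ranges. Host leptomeningeal cells (62.3 ± 14.8 CPM) came first for Ccng1, ahead of host microglia (50.5 ± 14.6 CPM), donor leptomeningeal cells (30.5 ± 4.01 CPM) and donor microglia (29.5 ± 9.09 CPM). Both of its host populations overlapped in CPM, and so did both donor populations.

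The marrow genotype was tested within each population. None of the 9 members passed in host microglia, where 0.0649% of all genes did, in donor microglia (0.0892% of all genes), in host leptomeningeal cells (0% of all genes) or in donor leptomeningeal cells (0.0487% of all genes). At an unadjusted p under 0.05, 463, 1253, 666 and 597 of all genes stood out in these 4 populations in that order, with Ccng1 the only member, in both host populations. DESeq2's test and voom also called none of the members. Cdkn1a averaged 2121 ± 317 CPM in mutant and 2156 ± 213 CPM in control chimeras for host microglia, and 333 ± 32.2 CPM in mutant and 308 ± 46.9 CPM in control chimeras for donor microglia (SD, n = 4 each). Its genotype difference was 0.01 ± 0.13 in host and 0.13 ± 0.14 in donor microglia on the log2 scale. The 95% intervals were -0.24 to 0.26 in host and -0.14 to 0.41 in donor microglia, all far below the host over donor difference of 2.57.

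In the leptomeninges Cdkn1a averaged 1147 ± 203 CPM in mutant and 1301 ± 195 CPM in control chimeras for host cells (n = 2 each), and 461 ± 53.5 CPM in mutant and 489 ± 59.1 CPM in control chimeras for donor cells (n = 4 each). Its genotype difference was -0.14 ± 0.18 in host and -0.06 ± 0.13 in donor cells. Over all members the genotype differences ran from -0.43 to 0.17 in host microglia, -0.79 to 0.47 in donor microglia, -1.05 to 0.57 in host leptomeningeal cells and -0.28 to 0.28 in donor leptomeningeal cells. Ccng1 was 0.43 ± 0.18 lower in mutant than in control host microglia (log2 -0.43, unadjusted p = 0.0202, adjusted p = 1) and 0.57 ± 0.27 higher in mutant than in control host leptomeningeal cells (unadjusted p = 0.0397, adjusted p = 0.884). A genotype effect on the host over donor difference passed for none of the 9 members in the parenchyma, where it passed for 0.0324% of all genes, or in the leptomeninges, where it passed for 0.00811%. In these tests 745 genes had an unadjusted p under 0.05 in the parenchyma, none of them a member, and 512 in the leptomeninges, with Mdm2 among them (0.53 ± 0.26, unadjusted p = 0.0499).

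**Figure D3:**
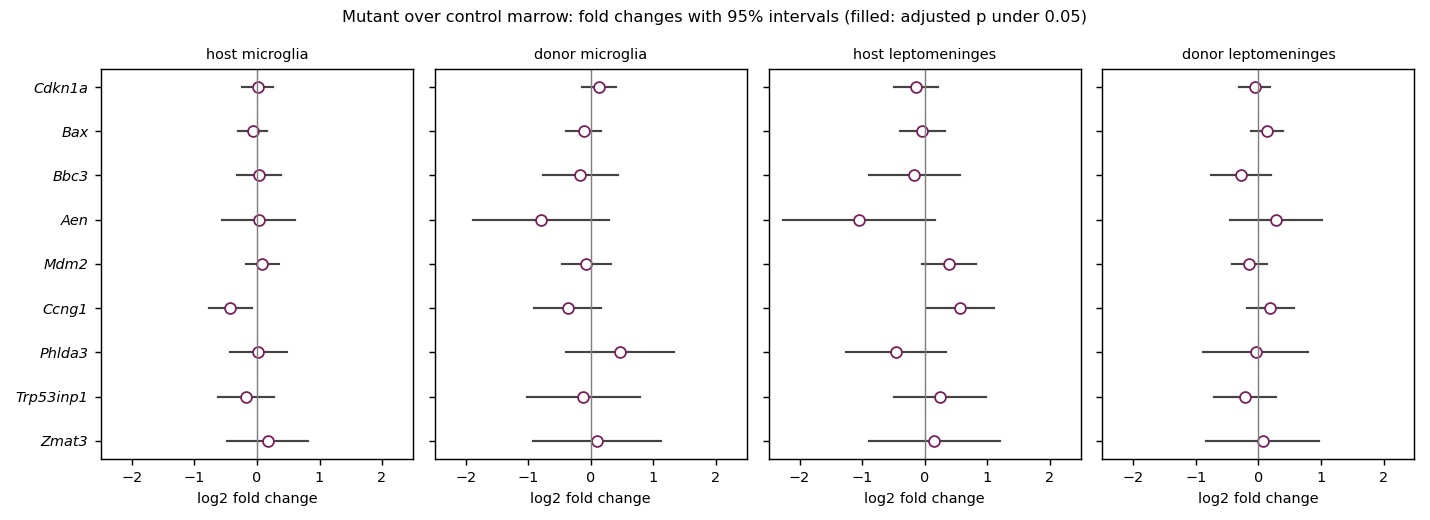
Fitted log2 fold changes (horizontal axes) of mutant over control marrow for the 9 tested p53 targets with 95% intervals, in host and donor cells of both compartments. All points are open because none had an adjusted p under 0.05, and the widest interval is that of Aen in host leptomeningeal cells.

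Other genes of the pathway moved in both directions, and several lists had counts near the share of all genes called, which was 27.3% higher and 33.1% lower in host microglia and 13.3% higher and 16.9% lower in host leptomeningeal cells. Of 32 further known p53 targets tested (38 in the list), 14 were higher and 7 lower in host than in donor microglia, with a median log2 fold change of 0.22. In the leptomeninges 10 were higher and 6 lower, with a median of 0.13. Ak1, an adenylate kinase, had 167 ± 21.6 CPM in host and 22.7 ± 9.53 CPM in donor microglia, and 39.0 ± 17.6 CPM in host and 4.20 ± 1.83 CPM in donor leptomeningeal cells. It rose in both compartments (2.71 ± 0.17, adjusted p = 7.46e-16, and 2.95 ± 0.25, adjusted p = 1.37e-11). Ephx1, a detoxifying epoxide hydrolase, rose in both as well (0.98 ± 0.11, adjusted p = 1.14e-10, and 1.76 ± 0.12, adjusted p = 2.1e-16). Sesn2, a stress sensor that restrains mTORC1, rose in host microglia (1.40 ± 0.16, adjusted p = 3.05e-10). Gdf15, a secreted stress cytokine, rose in host leptomeningeal cells (2.84 ± 0.34, adjusted p = 2.07e-07), at 39.3 ± 11.6 CPM in host and 4.60 ± 2.26 CPM in donor cells.

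Some p53 targets fell. Dram1, a lysosomal protein through which p53 drives autophagy in human cells, had 0.714 ± 0.584 CPM in host and 12.8 ± 5.13 CPM in donor microglia (-4.28 ± 0.37, adjusted p = 7.62e-14). Gadd45a, a sensor of stress and growth arrest, had 8.52 ± 3.93 CPM in host and 36.6 ± 8.79 CPM in donor leptomeningeal cells (-2.40 ± 0.31, adjusted p = 1.24e-07). A further 3 targets were chosen after their values were seen. Trp53cor1, a long noncoding RNA that lies upstream of Cdkn1a, was higher in host cells of the parenchyma (2.62 ± 0.37, adjusted p = 3.21e-08) and of the leptomeninges (2.82 ± 0.47, adjusted p = 3.63e-06). Its annotation overlaps another noncoding RNA on the opposite strand, and no source used here states the counting strand, so its values are uncertain. Pmaip1, which encodes the BH3-only protein NOXA, fell in host cells of the parenchyma (-1.37 ± 0.23, adjusted p = 1.48e-06) and of the leptomeninges (-0.72 ± 0.18, adjusted p = 0.00108), opposite to Bbc3 in the parenchyma. Apaf1, the scaffold of the apoptosome, fell in both too (-0.53 ± 0.19, adjusted p = 0.0132, and -1.12 ± 0.20, adjusted p = 1.25e-05). In the parenchyma Apaf1 lost the call without control donor microglia library 4 (adjusted p = 0.0702) or mutant donor microglia library 1 (adjusted p = 0.0741).

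**Figure D4:**
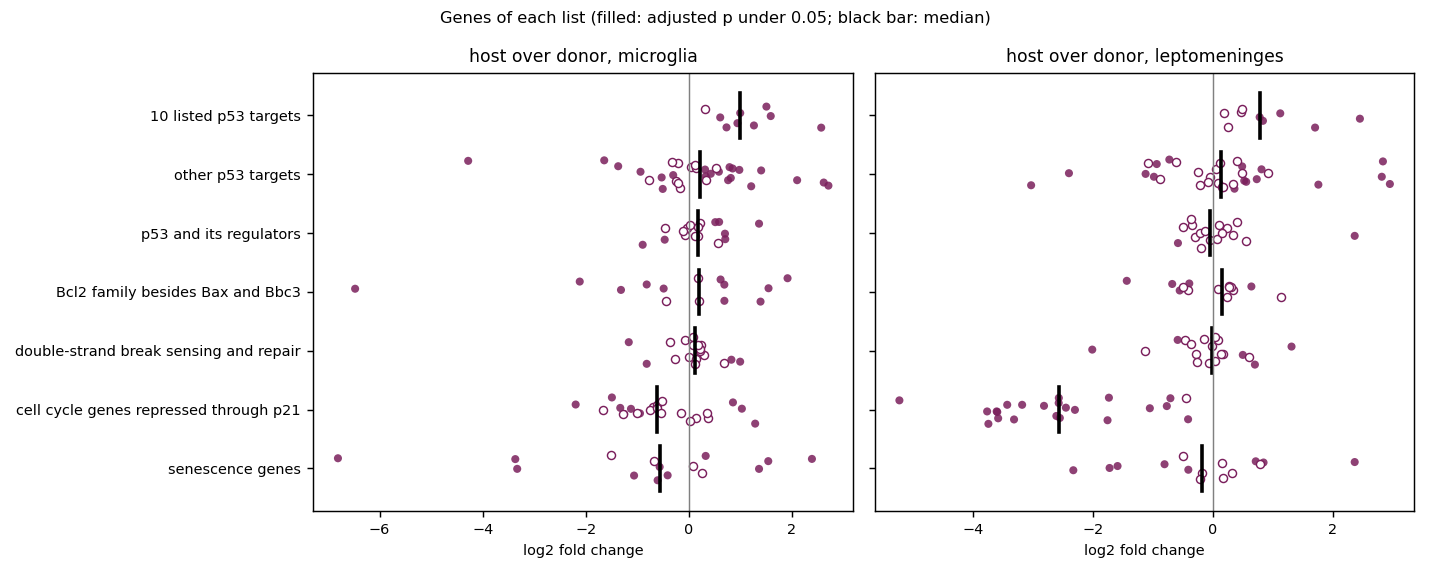
Fitted log2 fold changes of host over donor cells (horizontal axes) for the tested genes of 7 lists, in the parenchyma and the leptomeninges; each point is a gene, filled where its adjusted p was under 0.05, and black bars are list medians. The 9 tested members lie right of 0 in both panels, while the cell cycle genes have a median of -0.62 in the parenchyma and -2.57 in the leptomeninges.

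Of 17 tested genes of p53 and its regulators, 5 were higher and 2 lower in host microglia (median 0.18), and 1 was higher and 1 lower in host leptomeningeal cells (median -0.05). Over all genes 27.3% were higher and 33.1% lower in host microglia, so the list's count of higher genes was near that share, and 13.3% and 16.9% in host leptomeningeal cells. Trp53, the gene of p53 itself, had 97.1, 117 and 132 CPM (lowest, median, highest) in host microglia, against 47.7, 57.0 and 81.4 CPM in donor microglia. These groups did not overlap, and Trp53 rose by 0.70 ± 0.11 (adjusted p = 5.43e-07), although p53 is controlled mainly through the stability of its protein. In the leptomeninges Trp53 had 28.5 to 31.1 CPM in host and 17.0 to 24.7 CPM in donor cells and did not pass (0.33 ± 0.17, adjusted p = 0.133). Ppm1d, a phosphatase that switches p53 off, rose in host microglia (0.70 ± 0.21, adjusted p = 0.00322), as did the coactivator Ep300 (0.59 ± 0.12, adjusted p = 4.48e-05), while the kinase Hipk2 fell (-0.90 ± 0.14, adjusted p = 3.55e-07). Mdm4, the partner of Mdm2, did not pass in either compartment (0.18 ± 0.12, adjusted p = 0.192, and 0.16 ± 0.14, adjusted p = 0.418). In the parenchyma it passed without mutant donor microglia library 2 (adjusted p = 0.0498) and with both libraries that stood apart left out (adjusted p = 0.0165). In the leptomeninges its sign turned without control host library 1 (-0.01 ± 0.16, adjusted p = 0.97).

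In the leptomeninges Cdkn2a, whose locus encodes the Mdm2 inhibitor Arf and the kinase inhibitor p16, was higher in host cells (2.37 ± 0.53, adjusted p = 0.000424). It had 0.678, 7.16 and 10.04 CPM (lowest, median, highest) in host and 0, 0.766 and 1.85 CPM in donor leptomeningeal libraries. These levels rest on 26 UMIs in host and 17 in donor cells. The call was lost without mutant host library 1 (1.02 ± 0.96, adjusted p = 0.5). In the parenchyma Cdkn2a had 9.48 ± 2.61 CPM in host and 3.33 ± 2.10 CPM in donor microglia. Rchy1, another ubiquitin ligase of p53, fell in host leptomeningeal cells (-0.58 ± 0.14, adjusted p = 0.000666).

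Among 14 further genes of the Bcl2 family, 6 were higher and 5 lower in host microglia, and 1 was higher and 4 lower in host leptomeningeal cells, with medians of 0.19 and 0.16. The shares over all genes were 27.3% higher and 33.1% lower in host microglia and 13.3% higher and 16.9% lower in host leptomeningeal cells. Of its death-promoting members, Bmf (1.54 ± 0.13, adjusted p = 7.55e-15) and Bid (1.39 ± 0.14, adjusted p = 3.78e-12) rose in host microglia. Bok fell to 0.291 ± 0.253 CPM in host microglia, against 29.6 ± 17.9 CPM in donor microglia (-6.48 ± 0.43, adjusted p = 1.35e-17). The survival gene Bcl2l2 fell in host microglia too (-2.12 ± 0.21, adjusted p = 3.11e-12). Bok ran from 6.26 to 59.2 CPM over the donor microglia libraries. Astrocyte genes took 0.0149% to 0.0206% of UMIs in host and 0.0935% to 0.432% in donor microglia. The part of such other cells in the falls in host microglia was not tested. In the leptomeninges the survival gene Bcl2l1 rose (0.64 ± 0.11, adjusted p = 9.69e-06), while Bak1, the sister pore protein of Bax, fell (-0.68 ± 0.16, adjusted p = 0.000642), as did the survival genes Mcl1 (-0.39 ± 0.09, adjusted p = 0.000905) and Bcl2a1d (-1.43 ± 0.34, adjusted p = 0.000697). Bcl2a1d has near-identical copies, so its counts are uncertain. Neutrophil genes took 0.202% to 0.600% of UMIs in host and 3.66% to 9.78% in donor leptomeningeal cells. Their part in the falls in the leptomeninges was not tested.

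Most genes of double-strand break sensing and repair did not pass: of 19 tested, 2 were higher and 2 lower in host microglia (median 0.13), and 3 were higher and 2 lower in host leptomeningeal cells (median -0.01). Over all genes 27.3% were higher and 33.1% lower in host microglia, and 13.3% higher and 16.9% lower in host leptomeningeal cells. H2ax, the histone variant that is phosphorylated at breaks, fell in both (-0.82 ± 0.18, adjusted p = 0.000228, and -2.01 ± 0.23, adjusted p = 1.72e-08). Dclre1c, which encodes the end-joining nuclease Artemis, fell in host microglia (-1.17 ± 0.17, adjusted p = 9.78e-08) and rose in host leptomeningeal cells (0.70 ± 0.16, adjusted p = 0.000507). The mediator Mdc1 rose in host microglia (0.82 ± 0.22, adjusted p = 0.00131), and Parp1 fell in the leptomeninges (-0.59 ± 0.14, adjusted p = 0.000577). Nhej1 in host microglia (0.99 ± 0.40, adjusted p = 0.0297) lost its call without control donor microglia library 3 or 4, mutant donor microglia library 2, control host microglia library 3 or mutant host microglia library 2 (adjusted p = 0.0516 to 0.0626), and with DESeq2's test (adjusted p = 0.0697). Lig4 in the leptomeninges (1.31 ± 0.37, adjusted p = 0.00474) lost it without control host leptomeningeal library 1 (adjusted p = 0.11).

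Cell cycle genes that p53 represses through p21 fell almost throughout in the leptomeninges: 22 of 23 tested were lower and none was higher in host cells, with a median log2 fold change of -2.57, where 16.9% of all genes were lower. Top2a, the topoisomerase of dividing cells, had 9.57 ± 2.67 CPM in host and 95.8 ± 34.2 CPM in donor leptomeningeal cells (-3.60 ± 0.30, adjusted p = 1.06e-10). The mitotic genes Cdc20 (-3.61 ± 0.35, adjusted p = 1.44e-11) and Aurkb (-3.32 ± 0.35, adjusted p = 1.96e-10) and the replication helicase subunit Mcm7 (-1.76 ± 0.21, adjusted p = 6.43e-09) fell with it. In the parenchyma 3 of 23 were higher and 6 lower, with a median of -0.62, both counts below the shares of all genes that were higher (27.3%) and lower (33.1%). There the helicase subunits Mcm3 (1.03 ± 0.14, adjusted p = 1.83e-08), Mcm2 (1.28 ± 0.31, adjusted p = 0.000514) and Mcm5 (0.85 ± 0.25, adjusted p = 0.0041) rose in host microglia and the mitotic survivin gene Birc5 fell (-2.20 ± 0.33, adjusted p = 9.31e-07). Neutrophil genes, 14 of 14 detected in each population, took 0.202% to 0.600% of UMIs in host and 3.66% to 9.78% in donor leptomeningeal cells, and monocyte genes 0.0319% to 0.0479% in host and 0.241% to 0.511% in donor leptomeningeal cells. Their part in the fall of the cell cycle genes, and of the other named genes that fell in host leptomeningeal cells, was not tested.

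Genes often used to describe senescence, the lasting arrest that p21 can impose, moved in both directions. Of 15 tested, 4 were higher and 7 lower in host microglia (median -0.57), and 3 were higher and 5 lower in host leptomeningeal cells (median -0.19). The count of higher genes in host microglia was near the 27.3% of all genes, where 33.1% were lower, and the shares in host leptomeningeal cells were 13.3% higher and 16.9% lower. The inflammatory cytokine Il1b fell in both (-3.37 ± 0.16, adjusted p = 1.88e-16, and -1.72 ± 0.17, adjusted p = 6.35e-09), while Il1a rose in host microglia (1.54 ± 0.24, adjusted p = 1.95e-06). Mmp12, a macrophage elastase, fell in host microglia (-3.33 ± 0.54, adjusted p = 1.74e-06). Igfbp7 summed to 2 UMIs in host microglia, against 118 in donor microglia, a ratio of 0.00582 with an exact 95% interval of 0.000696 to 0.0215 that covers counting error only. Lmnb1, the lamin lost in senescent cells, fell in host leptomeningeal cells (-2.33 ± 0.27, adjusted p = 1.27e-08), and the chemokine Ccl2 rose there (0.72 ± 0.14, adjusted p = 0.000105).

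The level of Cdkn1a was set beside the markers that differed between populations. Microglial markers (10 of 10 detected) took overlapping shares in host leptomeningeal cells (0.374% to 0.817%) and donor microglia (0.577% to 0.694%). Cdkn1a was 1003 to 1439 CPM in host leptomeningeal cells and 265 to 366 CPM in donor microglia. Bax averaged 173 CPM in host leptomeningeal cells and 176 CPM in donor microglia, and Bbc3 24.1 and 26.4 CPM in the same order. Every other member averaged higher in host leptomeningeal cells, as Cdkn1a did. These populations were not tested against each other. Border macrophage markers (8 of 8 detected) were highest in host leptomeningeal cells (1.14% to 1.63%). They took 0.218% to 0.320% in donor microglia and were lowest in host microglia (0.0878% to 0.107%). Astrocyte markers took 0.0149% to 0.0206% of UMIs in host and 0.0935% to 0.432% in donor microglia, and oligodendrocyte markers 0.0151% to 0.0194% in host and 0.0715% to 0.444% in donor microglia. None of the 8 astrocyte and 6 detected oligodendrocyte markers was at 0 in any population. Neutrophil markers took 0.0591% to 0.153% in host and 0.111% to 1.05% in donor microglia. The part of these other cells, or of microglial or border macrophage identity, in the differences of the members or of the other named genes was not tested.

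**Figure D5:**
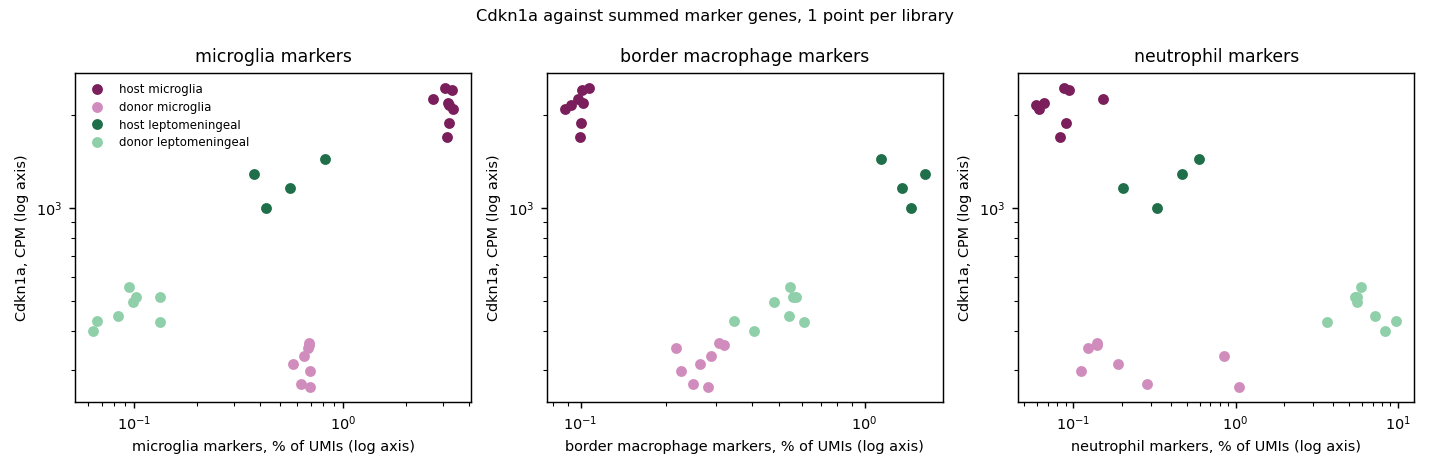
Cdkn1a in CPM (vertical axes, log scale) against the summed share of UMIs of microglial, border macrophage and neutrophil marker genes (horizontal axes, log scale), 1 point per library, coloured by population. Host leptomeningeal and donor microglia libraries overlap in their shares of microglial markers and differ in those of border macrophage markers. Cdkn1a is 1003 to 1439 CPM in host leptomeningeal cells and 265 to 366 CPM in donor microglia.

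Across the 28 libraries, the members followed Cdkn1a with Pearson correlations of log2 CPM from 0.53 for Zmat3 to 0.86 for Mdm2. The 5 other genes most like Cdkn1a among 8466 with a mean of at least 10 CPM were Tcn2 (0.974), Fcgr3 (0.972), Nckap1l (0.962), Srm (0.959) and Pmp22 (0.958). Tcn2, the carrier of vitamin B12, averaged 880 CPM in host microglia, 522 CPM in host leptomeningeal cells, 280.0 CPM in donor leptomeningeal cells and 242 CPM in donor microglia, the order that Cdkn1a showed. These correlations describe 8 groups that share libraries and depth, and carry no p. Within groups the members moved less together. Correlations of deviations from the group means over the 28 libraries ran from -0.59 for Bbc3 with Mdm2 to 0.60 for Cdkn1a with Bax, over the 7 members of at least 10 CPM.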

How the data were processed

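RNA of sorted brain macrophages was measured with MARS-seq in 28 libraries of 8 groups. The authors deposited a single table of gene symbols with 84 value columns, all of which matched a sample. Per the file headers, the raw columns hold counts, here UMIs per gene, with no scaling. The normalized columns, as deposited, hold a signal: each library's counts over its own size factor. The rlog columns, as deposited, are on a log2 scale and ranked genes like the counts did, with a rank correlation of 0.9716 or more in every library. Neither was used for a result. Per the submitters' processing notes the genome build was mm10. No aligner is named in the sources used here.

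Levels are CPM over library totals. Tests used edgeR 4.0.16 (R 4.3.3): quasi-likelihood with robust dispersions, trimmed-mean (TMM) scaling with factors from 0.834 to 1.207, 1 mean per group over all 28 libraries, and filterByExpr, which kept 12327 genes. Benjamini-Hochberg (BH) adjustment ran over these genes, with a threshold of 0.05. Host minus donor and leptomeninges minus parenchyma were averaged over genotypes. Fold changes are log2 values ± SE and levels are means ± SD. On simulated counts for host minus donor microglia, over 12327 genes, the test recovered 78% of 100 genes changed by 1 and 91% of 100 changed by 2 on the log2 scale, and 3.4% of calls were false. The simulation gave all libraries 1 mean profile and all genes 1 dispersion, and changed no other genes. Its rates need not hold for the real libraries, where far more genes differed. Over 38 pairs of replicates, counts differed beyond sampling noise in each pair, with a chi-square per degree of freedom of at least 1.97.

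The named genes are the 10 members, up to 4 genes of each pathway list with the smallest adjusted p past the threshold in each host and donor comparison, Trp53 and Mdm4, and the 5 genes most correlated with Cdkn1a over log2 CPM (prior count 2, mean of at least 10 CPM). Other genes are said to be chosen after their values were seen. The members and lists were chosen with earlier results of these data known. Alternatives were DESeq2 1.42.0 size factors in the same test, DESeq2's Wald test, limma 3.58.1 voom with quality weights, no low-count filter, the groups of a contrast fitted alone, a replicate block, each library left out, and both donor microglia libraries that stood apart (control library 1 and mutant library 4) left out. Libraries were left out only for comparisons that include their group. Promoter sequences are RefSeq's on GRCm38.p6. Depth limits low genes: a count of 0 allows up to 3 UMIs, or between 0.978 and 6.26 CPM depending on the library's total, for counting error alone.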

Additional observations from a re-analysis of the deposited data

Results flagged for a closer look

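In 4 members the host over donor difference differed between the compartments by the test of that difference itself, leptomeninges minus parenchyma on the log2 scale. The values were -1.44 for Cdkn1a, -1.03 for Bbc3, -0.47 for Mdm2 and 1.39 for Zmat3, so the host excess was smaller in the leptomeninges for the first of these genes down to Mdm2 and larger for Zmat3.

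A library stood far from the other libraries of its group in 3 of 64 sets of 4 libraries examined. Chance gives about 1 in 20 for continuous values, but a set with UMIs in only 1 library is always flagged. The count is therefore not weighed against chance. The 64 sets were 58 sets of a member's levels within a group, leaving out groups with no UMI, and 6 sets of the members' summed share of UMIs. Bbc3 was at 20.8 CPM in control donor microglia library 4, against 29.2 to 30.3 CPM in the other libraries of that group. Eda2r was at 1.97 CPM in mutant donor microglia library 1 and at 0.44 CPM in control donor leptomeningeal library 1, with 0 UMIs in the other libraries of these groups, so each rests on 1 or 2 UMIs.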

How the results depend on the processing

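The number of members passing between host and donor microglia was 8 under every alternative run, and it was 5 to 6 with each library left out for leptomeningeal host and donor cells. For the compartment difference it was 2 to 6 with each library left out. Over all members, 984 recomputed fold changes kept direction and side of the threshold, 38 lost a call, 17 gained one and 13 reversed; for pathway genes named, the counts were 1098, 10, 2 and 1. The reversed values were near 0: Aen between leptomeningeal and parenchymal donor cells, main value 0.01, was -0.04 with DESeq2's size factors, -0.042 with DESeq2's test, -0.006 with voom, -0.004 without both libraries that stood apart, and -0.11 to 0.18 over all its alternatives. Trp53inp1 between leptomeningeal and parenchymal host cells was -0.024 at the lowest and 0.31 at the highest, and Mdm4 between host and donor leptomeningeal cells -0.015 at the lowest and 0.27 at the highest. Counts of genes passing for genotype moved most, and the cause was not tested. In donor microglia 11 genes passed, against 17 with no filter, 49 with DESeq2's test, 141 with voom, 4 with the groups alone, 6 without both libraries that stood apart and 3 to 544 with each library left out. In host leptomeningeal cells 0 passed, against 3 with DESeq2's size factors, 2 with no filter, 10 with DESeq2's test, 17 with the groups alone and 1 to 5 with each library left out. In host microglia 8 passed, against 0 with the groups alone and 0 to 11 with each library left out. For the genotype effect on the host over donor difference 4 passed in the parenchyma (7 with DESeq2's test, 2 without both libraries, 2 to 74 with each library left out) and 1 in the leptomeninges (5 with DESeq2's test, 2 with voom, 2 with the groups alone, 1 to 5 with each library left out). No member passed for genotype under any of these.

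No pairing by replicate number was seen: in 0 of 28 pairs of groups did every same-numbered pair correlate above 0.1 in its deviations. These correlations ran from -0.31 to 0.31. Differently numbered libraries were not compared, so neither pairing nor mice shared between groups is excluded. With a replicate block, 8, 5, 5, 4 and 7 members passed, in the order of host and donor microglia, host and donor leptomeningeal cells, the compartment difference, and leptomeninges against parenchyma in host and in donor cells, and 4 genes passed for genotype in host leptomeningeal cells. With the block, Aen and Phlda3 missed the threshold between leptomeningeal and parenchymal host cells (adjusted p = 0.0652 and 0.122), and Trp53inp1 passed for the compartment difference (adjusted p = 0.0399). Depth limits Aen, Zmat3 and Eda2r in donor microglia, which include the 5 shallowest libraries.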
